A study of Mus musculus with 6 samples.

Results

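The genes described here are 40 listed goblet cell and secretory lineage genes, with the mucins themselves left out. They were found by gene symbol, each represented by the probe set (a group of array probes for one transcript) with the highest mean over the 6 arrays. Of the 40, 39 had a probe set carrying their symbol alone, out of 18193 genes measured, and Scin2 had none. A gene was tested if it read above 5 on the log2 scale on at least 3 arrays, which kept 31 of the 39 and 8893 of all genes. The samples were intestinal epithelial cells from 6 mice of a mixed 129/SV and C57BL/6 background, with 1 array per mouse. All 6 had floxed Pggt1b, the gene for a subunit of GGTase-I, which attaches geranylgeranyl lipids to proteins, and all were injected with 1 mg of tamoxifen on 3 days, with cells taken on day 6 from the start of treatment. The 3 control mice were negative for VillincreERT2, a tamoxifen-activated recombinase under the promoter of villin, a gene of the gut epithelium, and the 3 deficient mice were positive for it. An effect of the recombinase itself and one of the deletion therefore cannot be told apart. The sources used here name no age, sex or gut segment.

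Goblet cells are the mucus-making cells of the gut lining. They arise from crypt progenitors in which Notch signalling is low and Atoh1 is switched on, and Spdef and the Foxa factors then drive their maturation. Their gel-forming mucin is folded in the endoplasmic reticulum, heavily O-glycosylated in the Golgi apparatus by GalNAc transferases and chain-extending enzymes, stored in granules, and released together with trefoil peptides and other small secreted proteins.

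The arrays were alike in range, with medians from 3.26 to 3.33 (log2) and correlations over the genes tested of 0.953 to 0.980 within groups and 0.903 to 0.969 between groups. The mean of Pggt1b was 9.39 in controls and 9.16 in deficient arrays (limma adjusted p = 0.678), on a probe set whose place relative to the deleted part was not examined. The villin gene Vil1 was high on all arrays, from 13.92 to 14.65. Of 7 measured pancreatic acinar markers, 6 lay at or below 5 on all arrays. Lymphocyte markers differed most: all 12 tested of 15 T cell markers had lower means in deficient arrays and 10 passed the test. Their summed linear signal ran from 24373 to 31643 in controls and from 1681 to 6694 in deficient arrays, with Cd2 and Cd247 at or below 5 throughout. Of 10 tested myeloid markers, 4 passed as lower. Of 6 tested stromal markers 0 passed, with a median change of -1.18, and in 4 (Vim, Col1a2, Col3a1 and Sparc) all deficient arrays lay below all controls. Control replicate 2 stood apart in markers of gut position. The ileal bile acid protein gene Fabp6 read 12.73 there and from 15.03 to 15.73 on the other 5 arrays, and Slc10a2, the ileal bile acid carrier, read 5.85 there and from 8.46 to 9.94 elsewhere. Deficient replicate 1 differed in other such markers. Gstm3, from a list of proximal gut markers, read 8.77 on it and from 10.87 to 12.91 elsewhere. Cybrd1 of that list went the other way and was highest on it, at 10.99. Hoxb13, from a list of colon markers, read 8.25 on it and from 6.21 to 7.17 elsewhere.

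The defining goblet markers were all measured above the filter level, and 0 of 9 passed the test in either direction. Muc2, the gel-forming mucin itself, read 14.43, 14.38 and 14.04 in controls 1 to 3 and 14.68, 14.58 and 13.94 in deficient replicates 1 to 3, so the groups overlapped. Its log2 change, deficient minus control, was 0.12 ± 0.24 (SE, limma adjusted p = 0.828). The mean of the 9 defining markers, relative to their control mean, was 0.07, 0.17 and -0.24 in controls and 0.27, 0.23 and 0.12 in deficient arrays. In bulk samples such as these, fewer cells of a type and less RNA per cell cannot be told apart.

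Over the whole set, 0 of 31 tested genes passed limma's test at an adjusted p of 0.05 in either direction, where 0.112% of all 8893 genes passed as higher and 1.98% as lower. At an unadjusted p under 0.05, 5 were higher (Galnt3, Tff1, C1galt1, Spdef and Agr2) and 1 was lower (Nlrp6), against 5.60% of all genes higher and 11.3% lower. Groups did not overlap for 6 higher genes, the same 5 and Spink4, and for 2 lower genes, Nlrp6 and Fcgbp, against 9.00% of all genes higher and 16.7% lower. By mean, 22 of 31 were higher in deficient arrays and 9 lower, with a median log2 change of 0.17. Among all genes tested 45.4% had a higher mean and the median was -0.04. The set's median lay between 0.10 and 0.31 when 1 array was left out. These counts describe a set chosen with results of these data known, so none of them is a test of the set. Of the 31 changes 21 were under 0.5 in size, against 6636 of the 8893 genes tested. The 95% interval of the change lay within 1 log2 unit either way for 17 of 31, or 54.8%, against 64.6% of all genes tested.

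**Figure D1:**
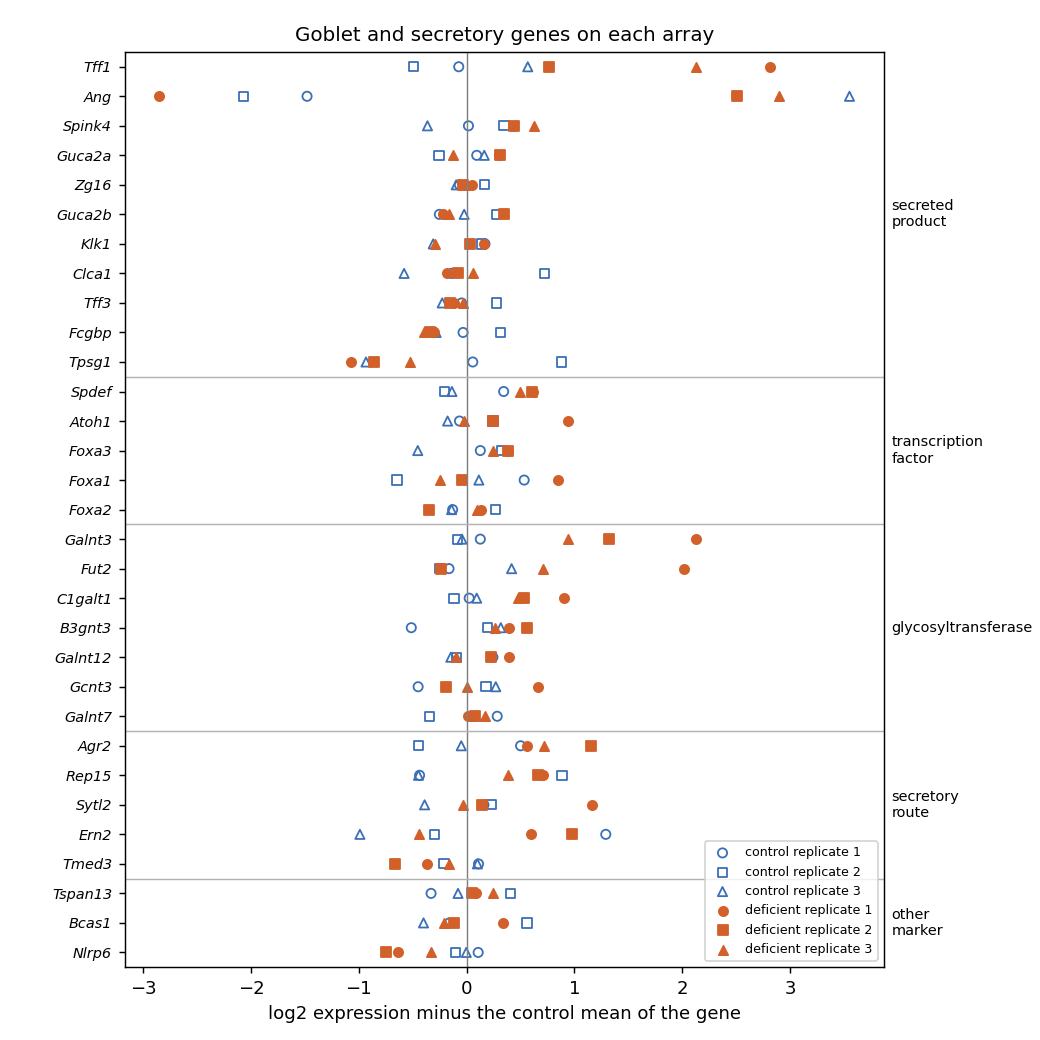
Each row is 1 of the 31 tested genes, grouped by role, and each marker is 1 array: its log2 expression minus the gene's control mean, with open markers for controls and filled markers for deficient mice. In most rows the groups mix, in 8 of the 31 they do not overlap, and Ang spreads over several units within each group.

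Among the secreted products, Tff3, Zg16 and Clca1 had fitted differences near 0. Tff3, the trefoil peptide of goblet cells that protects and repairs the epithelium, read 14.76, 15.08 and 14.58 in controls and 14.69, 14.65 and 14.77 in deficient arrays. Control replicate 2 was the highest array and control replicate 3 the lowest, so all deficient values lay inside the control range. Its log2 change was -0.11 (95% interval -0.53 to 0.32), which is 0.691 to 1.25 times the control level. Without control replicate 2 it was 0.03, and without control replicate 3 it was -0.22. Zg16, a lectin that binds gram-positive bacteria in the mucus, read 15.54, 15.77 and 15.51 in controls and 15.66, 15.57 and 15.59 in deficient arrays. Here too the deficient values fell inside the control range, with a change of 0.00 (95% interval -0.37 to 0.37). The highest value of any probe set on any array was 16.35, so this probe set read close to the top of the scale.

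Clca1, a secreted metalloprotease that processes mucus, read 13.86, 14.72 and 13.42 in controls and 13.82, 13.92 and 14.06 in deficient arrays. Control replicates 2 and 3 were its highest and lowest arrays, and the change was -0.07 ± 0.33 (SE). Without control replicate 2 it was 0.29, without control replicate 3 it was -0.36, and another of its probe sets differed by -1.03. Klk1, a tissue kallikrein, changed by -0.03 ± 0.21 (SE) on a probe set whose design can match related kallikreins, and by -0.04 on another probe set of the gene with a gene-specific design. With 1 array left out the former ran from -0.19 (without control replicate 3) to 0.09 (without deficient replicate 3).

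Guca2a and Guca2b encode guanylin and uroguanylin, peptides that activate guanylate cyclase C and drive fluid and salt secretion, and enterocytes make them as well. Guca2a changed by 0.16 (95% interval -0.32 to 0.64), or 0.04 without control replicate 2 and 0.31 without deficient replicate 3. Guca2b changed by -0.01 (95% interval -0.55 to 0.53), or 0.13 without control replicate 2. For each of these peptides the groups overlapped.

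Fcgbp, a large mucus protein that binds the mucin gel, was the 1 secreted product whose deficient values all lay below the controls. It read 13.50, 13.85 and 13.25 in controls and 13.23, 13.19 and 13.14 in deficient arrays. The gap between the nearest arrays was narrow, since control replicate 3 lay close to the deficient values. The change was -0.35 ± 0.19 (SE, limma adjusted p = 0.396), and -0.19 without control replicate 2.

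Spink4, a small Kazal-type protein of goblet granules, stood the other way, at 13.04, 13.37 and 12.66 in controls and 13.45, 13.46 and 13.65 in deficient arrays. Every deficient value was above every control, though control replicate 2 came close. The change was 0.49 ± 0.22 (SE, limma adjusted p = 0.305), and 0.31 without control replicate 3.

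Tff1, a trefoil peptide best known from the surface cells of the stomach, had the highest fitted change of the set. It read 5.15, 4.73 and 5.79 in controls and 8.04, 5.99 and 7.35 in deficient arrays. All deficient arrays lay above the controls, but deficient replicate 2 by only a narrow margin, and 1 control lay under the filter level of 5, so the size depends on how low values were estimated. The fitted change was 1.91 ± 0.53 (SE), or 3.75-fold, with a limma adjusted p of 0.164. Tff2, the third trefoil peptide, known from gastric mucous neck cells and the duodenal glands, was not above 5 on any array (3.28 to 3.48).

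Tpsg1, a membrane-anchored tryptase that mast cells also make, read 6.77, 7.59 and 5.78 in controls and 5.64, 5.85 and 6.19 in deficient arrays. The groups overlapped through control replicate 3, and the change was -0.82 ± 0.44 (SE, limma adjusted p = 0.383). Without control replicate 2, its highest array, it was -0.38, without control replicate 3 it was -1.28, and with weights per array -0.21.

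Ang, an angiogenin-type ribonuclease, varied more within each group than any other gene of the set, and not by group. Its probe set read 5.35, 4.76 and 10.38 in controls and 3.98, 9.34 and 9.73 in deficient arrays. Control replicate 3 and deficient replicates 2 and 3 were thus high, and the other 3 arrays were near the filter level. Another probe set of the gene gave 3.65, 4.79 and 9.99 in controls and 2.39, 8.84 and 9.51 in deficient arrays, and the one with a gene-specific design gave 6.55, 5.93 and 8.46, and 5.47, 7.43 and 7.86. All 3 probe sets placed the same 3 arrays high. The difference between groups was 0.86 ± 1.96 (SE), with a 95% interval of -3.78 to 5.50, so these arrays bound it only loosely, and it ran from -0.18 (without control replicate 2) to 2.71 (without deficient replicate 1). The cause of the spread was not tested.

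**Figure D2:**
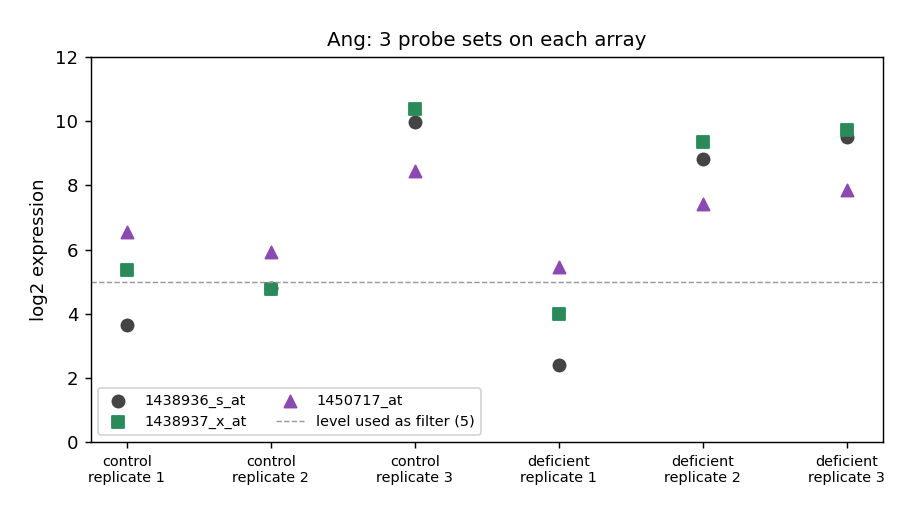
The log2 expression of Ang on each of the 6 arrays for its 3 probe sets, with the level 5 used as the filter drawn as a dashed line. Control replicate 3 and deficient replicates 2 and 3 are high on all 3 probe sets, from 7.43 to 10.38, and the other arrays lie at 6.55 or below.

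Of the transcription factors, 5 of 7 were tested and 0 passed. Spdef, which drives the maturation of goblet and Paneth cells, read 6.93, 6.38 and 6.45 in controls and 7.20, 7.19 and 7.08 in deficient arrays. The deficient values lay close together and above all controls, of which replicate 1 was nearest. The change was 0.57 ± 0.19 (SE), or 1.48-fold, with an unadjusted p of 0.0222 and a limma adjusted p of 0.226.

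Atoh1, the factor that commits progenitors to the secretory fate, read 6.78, 7.09 and 6.67 in controls and 7.79, 7.09 and 6.82 in deficient arrays. Deficient replicate 1 alone stood above the control range, and the change was 0.39 ± 0.28 (SE, limma adjusted p = 0.50), or 0.11 without that array and 0.59 without deficient replicate 3. The forkhead factors, which act with these genes in the secretory lineage, changed by 0.18 ± 0.39 (SE) for Foxa1, -0.04 ± 0.21 for Foxa2 and 0.34 ± 0.23 for Foxa3, each with overlapping groups. With 1 array left out Foxa1 ran from -0.15 (without deficient replicate 1) to 0.45 (without control replicate 1), and Foxa2 from -0.13 to 0.11. Foxa3 was at 0.11 without control replicate 3 and 0.59 with weights per array. Creb3l1 and Creb3l4, bZIP factors held in the endoplasmic reticulum membrane, were under the filter. Creb3l1 read 4.55 to 5.05 over the arrays and Creb3l4 read 2.71 to 3.93.

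All 7 tested glycosyltransferases of 10 had higher means in deficient arrays, with a median change of 0.40, and 0 passed. Among all genes tested 45.4% had a higher mean and the median was -0.04. The groups were apart in 2 of the 7. Galnt3, one of the GalNAc transferases that start mucin O-glycans, came nearest to the threshold of the whole set. It read 9.05, 8.84 and 8.88 in controls and 11.05, 10.24 and 9.86 in deficient arrays. The controls lay close together and every deficient array was well above them, deficient replicate 1 the most. The means were 8.92 ± 0.11 (SD, n = 3) and 10.4 ± 0.61 (SD, n = 3), a change of 1.46 ± 0.31 (SE), or 2.75-fold, with an unadjusted p of 0.00212 and a limma adjusted p of 0.0781. Without deficient replicate 3 the change was 1.72 and passed (limma adjusted p = 0.0403), and with weights per array it was 1.29 and passed (0.0289). Averaging it with its other 2 probe sets, which read below 5 on all arrays, gave 0.88 (limma adjusted p = 0.189). Over the alternatives its adjusted p lay between 0.0289 and 0.239.

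C1galt1, the galactosyltransferase that extends the initial GalNAc into the commonest mucin core, read 8.59, 8.45 and 8.66 in controls and 9.47, 9.10 and 9.04 in deficient arrays. The groups were apart, and deficient replicate 1 was again the highest. The change was 0.63 ± 0.18 (SE), or 1.55-fold, with an unadjusted p of 0.00977 and a limma adjusted p of 0.170. Its other probe sets changed by 1.04 and 1.07 on the log2 scale, also with all deficient arrays above all controls.

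Fut2, the fucosyltransferase that makes the intestinal H antigen, read 7.06, 6.97 and 7.64 in controls and 9.24, 6.99 and 7.93 in deficient arrays. Deficient replicate 2 lay with the controls and deficient replicate 1 far above them, and the change was 0.83 ± 0.54 (SE, limma adjusted p = 0.450). It was 0.24 without deficient replicate 1 and 1.37 without deficient replicate 2. B3gnt3, which elongates mucin chains with GlcNAc, changed by 0.40 ± 0.25 (SE), and Gcnt3, which branches the mucin core, by 0.16 ± 0.29. The GalNAc transferases Galnt7 and Galnt12 changed by 0.08 ± 0.20 and 0.17 ± 0.20. In these 4 genes the groups overlapped, and their values moved when 1 array was left out. B3gnt3 was at 0.15 without control replicate 1, and Galnt12 ran from 0.06 (without deficient replicate 1) to 0.31 (without deficient replicate 3). Gcnt3 ran from -0.09 (without deficient replicate 1) to 0.33 (without deficient replicate 2), and Galnt7 from -0.09 (without control replicate 2) to 0.23 (without control replicate 1). Galnt5, B3gnt7 and St6galnac1, the sialyltransferase that caps the initial GalNAc, were under the filter, with values of 4.18 to 4.72, 4.17 to 5.23 and 2.77 to 2.80.

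**Figure D3:**
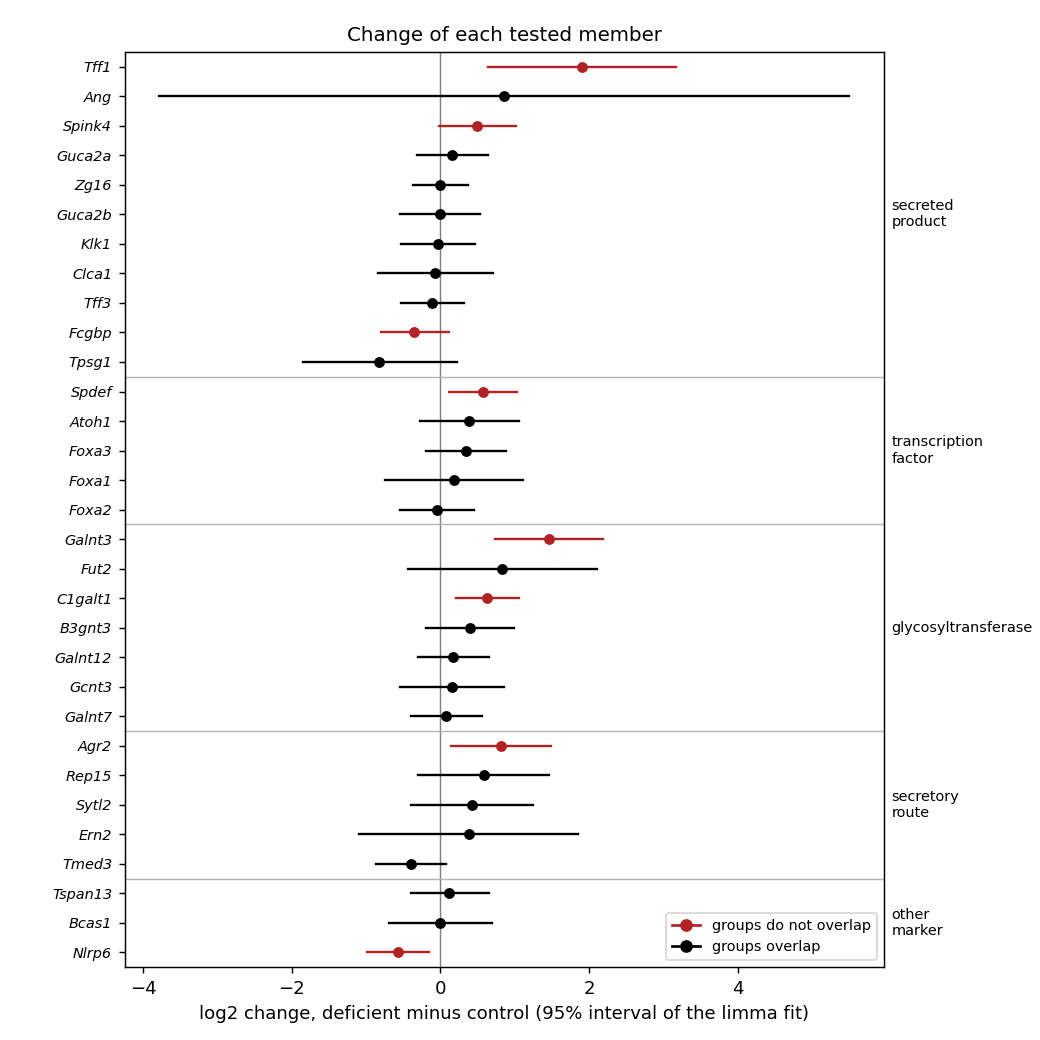
Points are fitted log2 changes (deficient minus control) of the 31 tested genes and bars their 95% intervals from the limma fit, in red where the 3 deficient arrays all lie on one side of the 3 controls. The intervals of Tff1, Spdef, Galnt3, C1galt1, Agr2 and Nlrp6 leave out 0, before any adjustment for the 8893 genes tested.

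In the secretory route, Agr2, a protein disulfide isomerase needed to fold the intestinal mucin, read 12.34, 11.39 and 11.79 in controls and 12.40, 12.99 and 12.56 in deficient arrays. Control replicate 1 lay just under the lowest deficient array, so the groups were barely apart. The change was 0.81 ± 0.29 (SE), or 1.76-fold, with an unadjusted p of 0.0249 and a limma adjusted p of 0.235. Without control replicate 2, its lowest array, the change was 0.59, and without control replicate 1 it was 1.06. With the mean of its probe sets it was 0.63. A further Agr2 probe set, whose design can match other transcripts, changed by 0.45 with overlapping groups.

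Ern2, the gut form of the sensor of unfolded protein, read 6.54, 4.95 and 4.26 in controls and 5.85, 6.23 and 4.81 in deficient arrays. It spread widely in both groups around the filter level, and the change was 0.38 ± 0.62 (SE), or -0.12 without control replicate 3 and 1.03 without control replicate 1. Tmed3, a cargo receptor of early secretory vesicles, changed by -0.40 ± 0.20 (SE, limma adjusted p = 0.350), with deficient replicate 3 at 9.73, just above the lowest control at 9.68, and was at -0.21 with the mean of its probe sets.

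Sytl2, a Rab27 effector in granule release, changed by 0.43 ± 0.35 (SE), with deficient replicate 1 at 9.69 and the other 5 arrays from 8.14 to 8.76. Without that array it was 0.06. Sytl4, of the same family, read 3.42 to 3.60 and was under the filter. Rep15, an effector of Rab15, changed by 0.58 ± 0.37 (SE, limma adjusted p = 0.445), and control replicate 2 at 7.68 was its highest array, without which the change was 1.03. It was 0.36 without control replicate 1 and 0.36 without control replicate 3.

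Of the remaining markers, Nlrp6 was lower in deficient arrays. It encodes a sensor protein of inflammasomes that has been linked to mucus release by goblet cells, and enterocytes express it too. Its values were 10.82, 10.61 and 10.71 in controls and 10.08, 9.97 and 10.38 in deficient arrays. The groups were clearly apart, with deficient replicate 3 nearest to the controls. The change was -0.57 ± 0.17 (SE), or 1.49-fold lower, with an unadjusted p of 0.0137 and a limma adjusted p of 0.192.

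Tspan13, a tetraspanin, read 12.99, 13.73 and 13.24 in controls and 13.41, 13.37 and 13.56 in deficient arrays, a change of 0.12 ± 0.22 (SE) with overlapping groups, or 0.33 without control replicate 2 and -0.04 without control replicate 1. Its other probe set read 10.80, 11.24 and 11.26, and 12.08, 12.15 and 11.71, a difference of 0.88 with the groups apart. The 2 probe sets of this gene therefore disagree in size. Bcas1 changed by 0.00 ± 0.29 (SE), or 0.28 without control replicate 2 and -0.20 without control replicate 3. Capn9, a calpain of the digestive tract, was above 5 on 1 array (3.98 to 5.10).

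**Figure D4:**
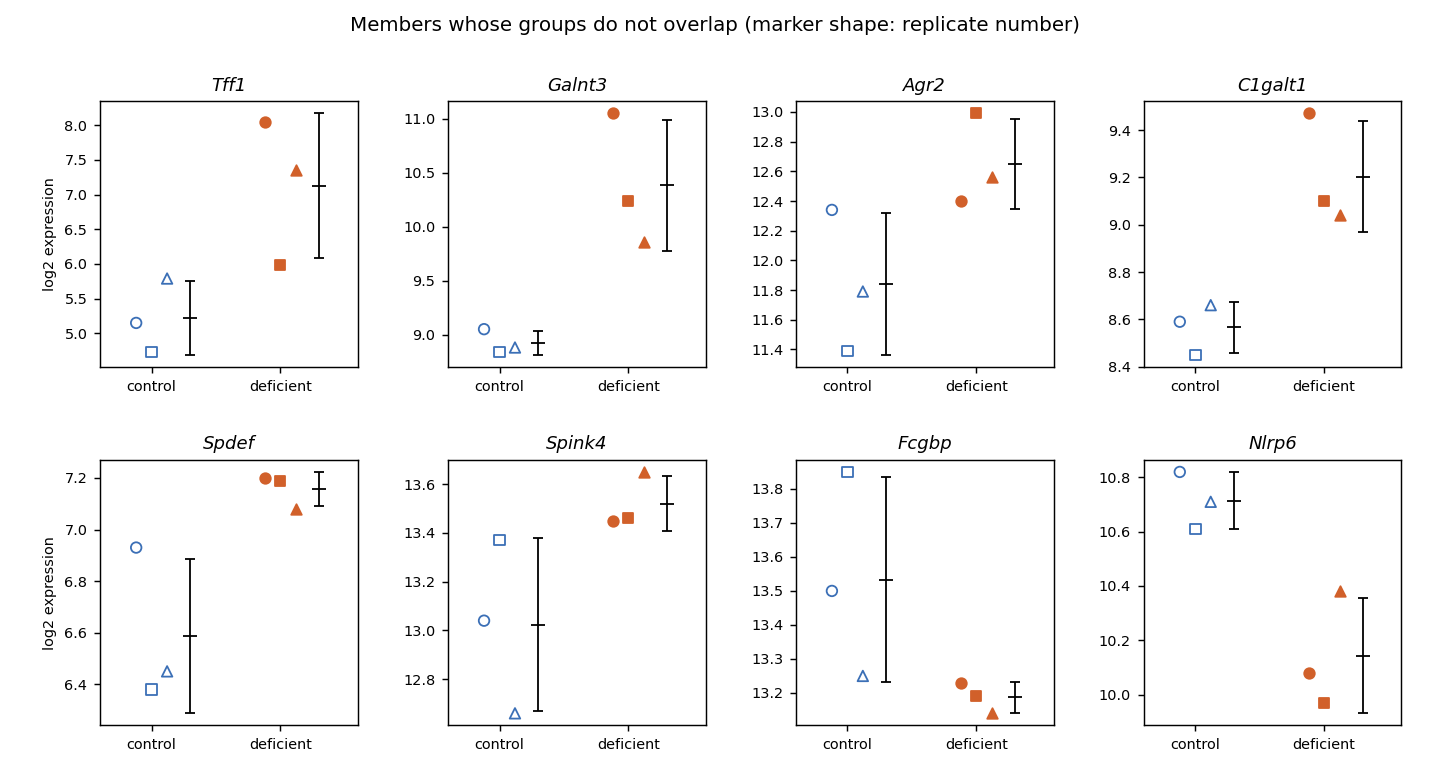
The 8 genes whose groups do not overlap, with log2 expression per array (marker shape is the replicate number) and the mean ± SD of the 3 arrays beside each group. Axes do not start at 0 and differ in range. Tff1 and Galnt3 differ by over 1 log2 unit between group means, and Fcgbp by 0.35.

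Promoter sequences in the RefSeq table (GRCm38.p6) were at hand for 24 of the 39 genes. Below are the 250 bases before the start of the 2 genes that were lower and of 2 that were higher with groups apart, chosen after their values were seen, to show what was searched. The search covered both strands for CAGCTG, a form of the E-box that basic helix-loop-helix factors such as Atoh1 bind, for TGTTTAC, a core of FOXA sites, and for CCGGAT, an ETS-type core. No motif overlaps another here. Capitals mark a match.
Fcgbp, chr7:28070986-28071235, plus strand: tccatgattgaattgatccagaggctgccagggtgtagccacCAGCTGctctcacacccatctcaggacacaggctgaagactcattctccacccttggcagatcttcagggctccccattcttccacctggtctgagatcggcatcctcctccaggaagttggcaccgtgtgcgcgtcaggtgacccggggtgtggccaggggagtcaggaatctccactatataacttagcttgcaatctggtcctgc
Nlrp6, chr7:140920652-140920901, plus strand: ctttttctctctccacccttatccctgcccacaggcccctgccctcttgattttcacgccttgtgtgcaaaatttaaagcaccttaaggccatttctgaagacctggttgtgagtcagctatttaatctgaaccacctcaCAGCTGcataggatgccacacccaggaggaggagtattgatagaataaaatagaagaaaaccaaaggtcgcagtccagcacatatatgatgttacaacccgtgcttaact
Agr2, chr12:35992675-35992924, plus strand: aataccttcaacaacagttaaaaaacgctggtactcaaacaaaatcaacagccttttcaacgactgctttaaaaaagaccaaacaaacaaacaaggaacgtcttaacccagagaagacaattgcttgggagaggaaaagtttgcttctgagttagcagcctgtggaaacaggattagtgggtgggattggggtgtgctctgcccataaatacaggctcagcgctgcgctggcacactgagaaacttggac
Spdef, chr17:27728952-27729201, minus strand: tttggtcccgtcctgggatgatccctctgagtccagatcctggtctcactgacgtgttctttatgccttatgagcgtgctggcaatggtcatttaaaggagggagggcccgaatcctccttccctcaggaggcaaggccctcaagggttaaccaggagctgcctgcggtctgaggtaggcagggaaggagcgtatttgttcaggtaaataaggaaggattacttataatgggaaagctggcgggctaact

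The E-box form begins 208 bases before the start of Fcgbp and 110 bases before that of Nlrp6. It occurs for 4 of the 24 genes (Fcgbp, Nlrp6, Guca2a and Galnt5), against 13% of the 32851 promoters in the table. For each motif the counts are of genes with a match in any promoter, and the percentages are of promoters, so the units differ. The FOXA core occurs in 2 of 24 (Foxa1 and Guca2a; 3.17% of all) and the ETS core in 2 of 24 (Galnt7 and Capn9; 4.94% of all). The windows of Agr2 and Spdef hold none of these letters. A match describes the sequence and does not show a bound site.

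Other genes of the pathway, from lists that hold none or 1 of the 40, gave 1 call. In the list of secretory fate and Notch genes, 1 of 16 tested genes passed as lower and 0 as higher. Of all genes tested, 1.98% passed as lower and 0.112% as higher. By mean, 12 genes of the list were lower and 4 higher, with a median change of -0.28. The gene that passed was Gfi1, a transcriptional repressor that acts after Atoh1 in goblet and Paneth cells and is also expressed in lymphocytes. It read 6.96, 6.81 and 6.93 in controls and 5.45, 5.48 and 5.79 in deficient arrays. The groups were far apart compared with their spread, and the change was -1.33 ± 0.17 (SE), or 2.51-fold lower (limma adjusted p = 0.00984). With limma, Gfi1 did not pass with the replicate number as a block (adjusted p = 0.0542), nor when an array was left out in 3 cases: controls 1 and 3 (0.0562 and 0.0637) and deficient replicate 2 (0.0564). The T cell markers given above were lower on the same arrays. Their part in the values of Gfi1 and of the other genes of this list, Notch1 and Rbpj included, was not tested. In the same list Notch1, a receptor of the pathway, was at -1.19 ± 0.29 (SE) and Rbpj, its DNA-binding partner, at -0.77 ± 0.21 (limma adjusted p = 0.123 and 0.156), the latter at -0.36 with the mean of probe sets. Notch1 read 5.17, 4.79 and 4.60 in deficient arrays, around the filter level of 5, and had no value with the mean of probe sets. Of the 4 genes with higher means, Sox9 was at 0.94 ± 0.29 (SE) with the groups apart (limma adjusted p = 0.189). Hes1 was at 0.64 ± 0.35 (SE) with overlapping groups (limma adjusted p = 0.393).

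Of 25 tested genes on a further list of O-glycosylation, mainly enzymes but also sugar transporters and a chaperone, 0 passed, with a median change of 0.18 and 18 higher means. Chst4, a sulfotransferase acting on GlcNAc, was at 0.76 ± 0.18 (SE) and B4galt5, a galactosyltransferase, at -0.72 ± 0.23 (limma adjusted p = 0.122 and 0.199). B4galt5 was at -0.38 with the mean of probe sets and had no value with gene-specific designs. Of 23 tested genes of the secretory route and granule release, 0 passed and the median was 0.19. Marcks, a substrate of protein kinase C that takes part in mucin secretion, was at 0.99 ± 0.23 (SE) and the vesicle priming factor Unc13b at 0.89 ± 0.24 (limma adjusted p = 0.117 and 0.156). Marcks passed with weights per array (1.00, limma adjusted p = 0.0400), and its adjusted p reached 0.302 over the alternatives. Of 25 tested genes on a list of other goblet markers, Tpsg1 among them, 0 passed, with a median of 0.12. Hgfac, a serine protease, was at -0.96 ± 0.19 (SE, limma adjusted p = 0.0614) and Dnajc10, a disulfide reductase of the endoplasmic reticulum, at 0.81 ± 0.23 (0.164).

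Marker lists of the other epithelial cell types held 0 genes that passed, with medians on either side of that of the goblet markers. The median change was -0.21 over 20 enterocyte genes, 0.60 over 9 Paneth genes, -0.38 over 14 enteroendocrine genes and -0.23 over 5 tuft cell genes, against 0.12 for the 9 defining goblet genes. The tuft list ran from -1.35 to 1.37 within the controls, the Paneth list from -0.94 to 0.61 and the enteroendocrine list from -0.52 to 0.60. Within the controls the goblet list ran from -0.24 to 0.17 and the enterocyte list, about as narrow there, from -0.29 to 0.18. On deficient replicates 1 to 3 the enterocyte list was at -0.67, -0.08 and -0.09 and the goblet list at 0.27, 0.23 and 0.12. The enteroendocrine list was at -1.43, -0.03 and 0.52, the tuft list at -1.19, -0.57 and 0.76, and the Paneth list at 0.33, 1.04 and 1.04.

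**Figure D5:**
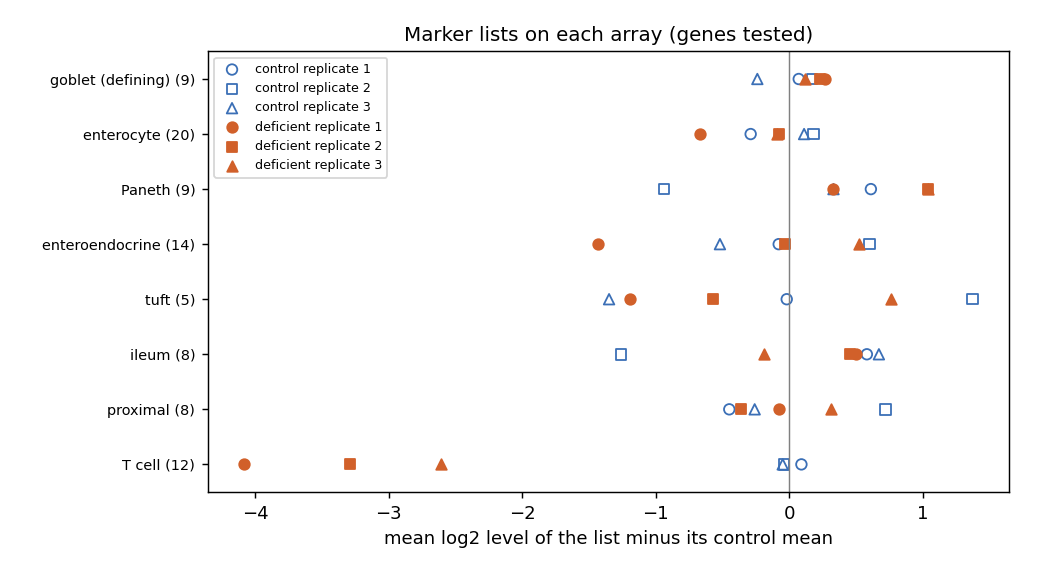
Mean log2 level of marker lists on each array relative to the list's control mean, with the number of genes tested in brackets. The goblet list stays between -0.24 and 0.27 on all 6 arrays, and the T cell list lies between -4.08 and -2.61 on the deficient arrays.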

How the data were processed

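The authors deposited a table of log2 expression with a value for each probe set on each array. Partek 6.5 and GCRMA, which models probe background from sequence before normalizing, are named in the submitters' processing notes, without their order. The log2 scale was read from the values, and low values depend on the background model. Of 45101 probe sets, 64 control probe sets were left out, 34945 carried 1 gene symbol in the platform annotation, 932 several and 9160 none. No symbol changed through the gene table of GRCm38.p6. The 3 deficient arrays were set against the 3 controls in limma 3.58.1 (R 4.3.3; lmFit and eBayes without covariates) over 8893 genes, with Benjamini-Hochberg adjustment over all of them and a threshold of 0.05. The script was tested on simulated data. Errors are SDs of 3 mice or standard errors of the fit, and precision is limited by having 3 arrays a group. Of the 31 tested members, Zg16, Klk1 and Ang were read by probe sets that can match several transcripts. So were B4galt5 and Marcks of the other lists. All members are named, and of the other lists the called genes, the defining goblet markers and up to 2 genes with the smallest p. Sox9 and Hes1 were added as genes of higher mean on the Notch list. Members and lists were chosen with earlier results of these data known. Alternatives changed the variance model, weights, filter, normalization, probe sets and block, or left out 1 array.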

Additional observations from a re-analysis of the deposited data

How the results depend on the processing

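Of the 31 genes tested, 18 kept the direction of their change under each of the 16 alternatives that gave them a value. The count of higher calls among them went from 0 to 1 (Galnt3) with array weights and without deficient replicate 3 (range 0 to 1 when 1 array was left out), and the count of lower calls was 0 under all 16. The median change was 0.25 with median centring and 0.34 with the mean of probe sets, and 0.10 to 0.31 without 1 array. Over all genes, higher calls numbered 33 with array weights, 0 without the low-value filter, 17 with median centring and 6 with the mean of probe sets, and 3 to 36 without 1 array (36 without deficient replicate 3, 3 to 5 without any other array). Lower calls were 85 without the filter, 90 with a filter at 7, 111 with the mean of probe sets, and 88 to 203 without 1 array, lowest without control replicate 1 (88), deficient replicate 2 (97) and control replicate 3 (101).

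The other genes turned sign in at least 1 alternative. With array weights these were Tff3 (0.03), Clca1 (0.30), Klk1 (0.08), Guca2b (0.08), Ang (-0.08), Foxa1 (-0.10) and Gcnt3 (-0.12). With median centring they were Clca1 (0.01), Klk1 (0.04), Guca2b (0.07) and Foxa2 (0.03). Zg16 read -0.01 with quantile normalization, -0.06 with the mean of probe sets and -0.10 with gene-specific designs, where Ang read -0.06. Leaving out 1 array gave ranges of -0.22 to 0.03 for Tff3, -0.36 to 0.29 for Clca1, -0.05 to 0.08 for Zg16 and -0.19 to 0.09 for Klk1. The ranges were -0.18 to 2.71 for Ang, -0.19 to 0.13 for Guca2b, -0.15 to 0.45 for Foxa1 and -0.13 to 0.11 for Foxa2. They were -0.09 to 0.23 for Galnt7, -0.09 to 0.33 for Gcnt3 and -0.12 to 1.03 for Ern2. Tspan13 ran from -0.04 to 0.33 and Bcas1 from -0.20 to 0.28. Muc2, which is outside the set, ran from -0.02 to 0.35. The causes were not tested.

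The labels gave same-numbered arrays of the groups a shared number and did not say that their mice were paired. Their deviations from the group means correlated at 0.048, -0.291 and 0.002, and no control correlated best with the deficient array of its own number. Of the deficient arrays, only replicate 1 correlated best with the control of its own number. With so few arrays these values do not settle whether mice were paired. With the replicate number as a block, 0 of the 31 genes passed, and 9 genes in all were called higher and 132 lower.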

Other observations

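The arrays differed in which of the 31 tested goblet and secretory genes they held at their extremes. Deficient replicate 1 was the highest array for 10 genes, among them Galnt3, C1galt1, Fut2, Gcnt3, Galnt12, Atoh1, Foxa1 and Tff1, and the lowest for 2. Control replicate 2 was the highest for 9, among them the secreted products Tff3, Clca1, Fcgbp, Zg16 and Tpsg1, and the lowest for 9 others, among them Agr2, Spdef, Galnt3, Galnt7, C1galt1 and Foxa1. Control replicate 3 was the lowest for 12 and the highest for Ang alone. Deficient replicate 3 was the highest and the lowest for 1 gene each, Spink4 and Fcgbp. These are single arrays with no test, and control replicate 2 is the array with the low ileal markers. Deficient replicate 1 is the array with low Gstm3 and high Hoxb13. Whether gut position bears on these values was not tested.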
